A study of Mus musculus with 3 samples.

Results

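The cells described here are 152 of the 2793 macrophage-lineage cells kept from mouse sciatic nerve 1 day after nerve crush, chosen because they held much RNA of Slpi, Cxcl3 or Mmp12. Nerve crush severs the axons and leaves the nerve sheath in place. A cell was taken when it had at least 6 unique molecular identifiers (UMIs, each standing for 1 captured RNA molecule) over these 3 genes. It also had at most 1 UMI over the monocyte genes Chil3, Ly6c2 and Vcan, at most 1 over the interferon-response genes Rsad2, Ifit1, Ifit2 and Ifit3, and under 3 over the resident macrophage genes Mgl2, Lyve1 and Cd81. The cells made up 5.44% of the day 1 library (exact binomial 95% interval 4.63 to 6.35). Mmp12 was detected in few of them, so they are called Slpi/Cxcl3 cells. High values of the 3 genes and low values of the gate genes were the choice itself and are given as a description.

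The study sampled sciatic nerve macrophages of C57BL/6 mice in 3 groups of 1 library each: uninjured nerve (steady state), 1 day after crush and 5 days after crush, with 728, 2793 and 2059 kept cells. The labels give no other allele or agent. The sources used here do not give the age or number of the animals or how the cells were sorted. With 1 library per group and cells that share an animal source and a library, there was no replicate and no test, and every interval below covers counting error at 95% only. Median UMIs per cell were 2238.5, 2555 and 2473 in steady state, day 1 and day 5. The day 1 library shared 11 cell barcodes with day 5 and 2 with steady state, and none of these was a Slpi/Cxcl3 cell.

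Slpi encodes secretory leukocyte protease inhibitor, a secreted inhibitor of neutrophil elastase and cathepsin G. Cxcl3 is a chemokine that draws neutrophils through the receptor Cxcr2, and Mmp12 is the elastin-degrading macrophage metalloelastase. Macrophages in injured tissue meet oxidants, heme and low oxygen. NRF2, the product of Nfe2l2, turns on antioxidant genes through antioxidant response elements, among them Slc7a11, the cystine importer that feeds glutathione synthesis, and hypoxia-inducible factors turn on glycolytic genes.

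The same rule gave 4 of 2059 cells at day 5 (0.194%, exact interval 0.053 to 0.497) and 0 of 728 in steady state, where 3 counts would be a share of 0.412% and the exact interval reaches 0.505%. The 4 day 5 cells held 25 UMIs of Slpi, 1 of Cxcl3 and 8 of Mmp12. CPM here is the UMIs of a gene summed over a set of cells and scaled to a total of 1e+06. In all kept cells of steady state, day 1 and day 5, Slpi stood at 0, 385 and 13.6 CPM. Cxcl3 stood at 0.604, 407 and 3.801 CPM and Mmp12 at 0, 16.3 and 6.34 CPM in the same order. Each of the 3 genes was highest in the day 1 library. Whether fewer cells or less RNA per cell set these library sums was not tested, apart from the counts of cells given here.

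The 3 genes did not contribute alike. Slpi was detected in 94 of the 152 cells (61.8%), with a median of 3 and a maximum of 119 UMIs. Cxcl3 was detected in 119 cells (78.3%), with a median of 6 and a maximum of 73 UMIs. Mmp12 was detected in 11 cells (7.24%), with a median of 0 and a maximum of 31 UMIs, and gave 3.68% of the UMIs of the 3 genes. The rule fixed the sum of the 3 genes and not the share of each, and Mmp12, which the label names, had no UMI in most of the cells. By genes detected, 49 cells had Cxcl3 alone, 33 had Slpi alone, 59 had Slpi and Cxcl3, 9 had Cxcl3 and Mmp12, and 2 had all 3. All 11 cells with Mmp12 thus had Cxcl3 as well.

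The threshold cut through a continuous range. At the threshold, 22 cells had 6 UMIs of the 3 genes and 46 had 6 or 7, while 22 gated cells with 5 UMIs and 49 with 4 stayed outside, and 34 of the Slpi/Cxcl3 cells had 20 or more. The gates removed more cells than they left: of 314 cells with at least 6 UMIs, 162 failed a gate, 135 of them the monocyte gate alone, 12 the interferon gate alone, 1 the resident gate alone and 14 at least 2 gates. The Slpi/Cxcl3 cells held 36.3% of the day 1 library's UMIs of the 3 genes, and the gate-failing cells held 36.4%.

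**Figure D1:**
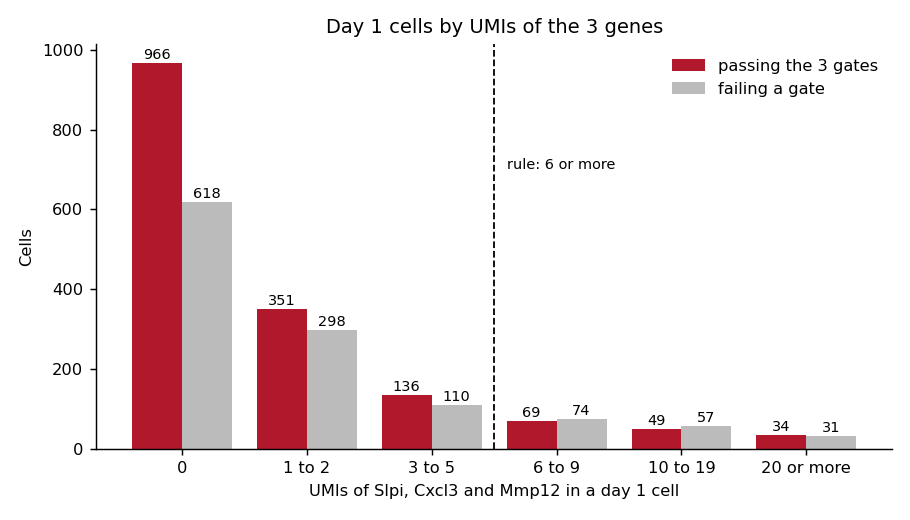
Number of day 1 cells (vertical axis) by UMIs of Slpi, Cxcl3 and Mmp12 in the cell (horizontal axis), for cells that passed the 3 gates (red) and cells that failed a gate (grey). To the right of the dashed line, the 69, 49 and 34 red cells are the 152 Slpi/Cxcl3 cells, and numbers fall steadily across the line.

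Detection of one of the 3 genes went with detection of the others to a limited extent. Among gated cells, Slpi was at 572 CPM (503 to 648) in 137 cells picked by at least 4 UMIs of Cxcl3 and Mmp12, against 290 CPM (269 to 311) in 1162 cells with none of either. The shares of cells with a Slpi UMI were 27.7% and 16.9%, with median depths of 2960 and 1708.5 UMIs per cell. Cxcl3 was at 1147 CPM (1024 to 1281) in 98 cells picked by Slpi and Mmp12, against 409 CPM (386 to 433) in 1275 cells with none of either, at median depths of 2576.5 and 1828 UMIs. Mmp12 was at 69.3 CPM (50.4 to 93.1) in 218 cells picked by Slpi and Cxcl3, against 5.26 CPM (2.63 to 9.42) in 974 cells with none of either, at median depths of 2725 and 1687.5 UMIs. Slpi and Cxcl3 were each about 2 to 3 times higher where the other genes were high, yet most cells picked by the other genes had no Slpi UMI. Among all day 1 cells, 15 nearest neighbours were found in a principal component space built without the genes of the rule. A Slpi/Cxcl3 cell had on average 2.51 of the 152 among its 15 neighbours, against 0.816 by their share of the library, and 22 had none. The cells with at least 6 UMIs that failed a gate had on average 1.68 of them, also above that share. Pf4-gated cells, defined below, had 0.667 and monocyte-gated cells 0.391. The cells were thus nearer to each other than their share gives, and so were the gate-failing cells to them.

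The promoters of Slpi and Cxcl3, whose levels chose the cells, and of 3 antioxidant genes that were higher in them (Gclm, Srxn1 and Prdx1, described below) are printed for their motifs. Each runs 5′ to 3′ on the gene's strand from 250 bases before to 50 bases after the RefSeq start in build GRCm38.p6. The windows are chr2:164356458-164356757 on the minus strand for Slpi, chr5:90785851-90786150 for Cxcl3, chr3:122245307-122245606 for Gclm, chr2:152105274-152105573 for Srxn1 and chr4:116685349-116685648 for Prdx1, the last 4 on the plus strand. Capitals mark every match, on either strand, to AP-1 (TGANTCA), the antioxidant response element (TGACNNNGC), the hypoxia response element (ACGTG), C/EBP (TTGCNNAA) or the TATA box (TATAAA).
Slpi: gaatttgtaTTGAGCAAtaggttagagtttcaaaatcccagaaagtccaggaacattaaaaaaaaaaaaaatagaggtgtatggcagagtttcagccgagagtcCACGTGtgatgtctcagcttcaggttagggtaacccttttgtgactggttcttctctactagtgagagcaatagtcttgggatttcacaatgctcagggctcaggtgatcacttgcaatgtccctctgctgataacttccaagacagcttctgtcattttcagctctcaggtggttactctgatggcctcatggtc
Cxcl3: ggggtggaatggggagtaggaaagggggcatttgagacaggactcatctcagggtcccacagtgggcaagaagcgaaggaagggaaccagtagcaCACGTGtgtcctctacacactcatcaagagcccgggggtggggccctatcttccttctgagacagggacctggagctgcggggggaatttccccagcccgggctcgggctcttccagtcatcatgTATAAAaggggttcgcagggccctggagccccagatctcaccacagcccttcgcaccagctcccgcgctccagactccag
Gclm: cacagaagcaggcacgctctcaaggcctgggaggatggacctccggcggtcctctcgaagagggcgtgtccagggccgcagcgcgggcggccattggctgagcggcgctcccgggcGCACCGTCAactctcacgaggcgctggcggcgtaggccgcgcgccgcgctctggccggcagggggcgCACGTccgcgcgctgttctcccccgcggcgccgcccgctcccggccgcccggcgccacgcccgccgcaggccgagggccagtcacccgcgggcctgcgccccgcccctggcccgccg
Srxn1: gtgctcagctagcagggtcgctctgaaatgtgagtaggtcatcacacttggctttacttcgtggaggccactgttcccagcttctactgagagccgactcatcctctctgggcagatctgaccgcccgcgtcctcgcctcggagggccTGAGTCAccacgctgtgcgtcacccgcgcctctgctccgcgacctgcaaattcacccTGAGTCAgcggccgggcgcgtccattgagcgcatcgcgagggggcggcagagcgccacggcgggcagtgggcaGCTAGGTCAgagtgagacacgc
Prdx1: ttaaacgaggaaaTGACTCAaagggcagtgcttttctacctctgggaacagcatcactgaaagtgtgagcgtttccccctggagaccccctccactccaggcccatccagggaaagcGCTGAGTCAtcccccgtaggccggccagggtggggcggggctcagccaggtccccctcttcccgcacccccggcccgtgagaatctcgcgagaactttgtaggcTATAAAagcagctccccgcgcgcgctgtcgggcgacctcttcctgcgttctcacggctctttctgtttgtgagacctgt

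Slpi and Cxcl3 each held CACGTG, a palindrome that matches the hypoxia response element on both strands, at positions -146 and -155 from the start. The hypoxia response element also matched in Gclm at -67, and the window of Ass1, not printed, held CACGTG at -36. Slpi also had a C/EBP match at -241 and Cxcl3 a TATA box at -30. Gclm, Srxn1 and Prdx1 each held an antioxidant response element match, at -134, 29 and -133, and the Prdx1 match overlaps an AP-1 match at -131. The 3 antioxidant genes printed were picked with these matches known. The window of Slc7a11, not printed, held C/EBP matches at -160 and -6 and no antioxidant response element. The 2 windows of Mmp12 held C/EBP, AP-1 and TATA box matches and no hypoxia response element. Of the other windows searched and not printed, that of Cd9 held no match. The 2 windows of Spp1 held a TATA box and a C/EBP match and neither response element. Of 27025 RefSeq promoter windows of this length, 19.7% held the hypoxia response element, 12.5% the antioxidant response element, 7.93% AP-1, 10.8% C/EBP and 14.2% the TATA box. A match is a run of letters and no evidence of binding.

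The macrophage label was kept, though not every macrophage gene was as high as in other day 1 cells. All 16 macrophage genes looked at had UMIs in the Slpi/Cxcl3 cells and summed to 41106 CPM, 21590 CPM of it from Lyz2. The sum was 38030 CPM in the 1584 day 1 cells with 0 UMIs of the 3 genes, with Lyz2 at 17589 CPM. Of 15 macrophage genes tested against those cells, 5 were higher and 10 lower, by any amount, with a median log2 ratio of -0.19. Lyz2 and Ctss were detected in all 152 cells and Cd14 in 145. Csf1r, the receptor for macrophage colony-stimulating factor, was at 208 CPM in Slpi/Cxcl3 cells and 244 CPM in cells with 0 UMIs. Adgre1 was at 78.9 CPM against 126 CPM, and Mertk had 6 UMIs in 5 of the Slpi/Cxcl3 cells. Because Slpi and the Cxcr2 ligands are also known from neutrophils, 16 neutrophil genes were summed. Of these, 6 had UMIs in Slpi/Cxcl3 cells, and the sum was 118 CPM there and 81.8 CPM in cells with 0 UMIs. Mmp9 had 20 UMIs, Mmp8 15, S100a8 11, Csf3r 6, and S100a9 and G0s2 1 each. Mmp9 (43.8 against 36.5 CPM), Mmp8 (32.9 against 9.31 CPM) and S100a8 (24.1 against 14.2 CPM) were higher than in cells with 0 UMIs. Csf3r (13.1 against 15.4 CPM) was lower. Cxcr2, Retnlg, Ly6g, Camp, Ltf, Ngp and Lcn2 were at 0 in Slpi/Cxcl3 cells. Dcn, the collagen genes and Sox10 of fibroblasts and Schwann cells were at 0, with 3 of 15 such genes detected, as were 1 of 9 endothelial, 2 of 14 lymphoid or mast cell and 3 of 12 dendritic cell genes. A doublet caller marked 0 of the 2793 day 1 cells, so it gave no usable call and doublets remain possible.

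Against the 1584 cells with 0 UMIs of the 3 genes, the Slpi/Cxcl3 cells were higher in many antioxidant and lipid genes and in some matrix genes, and lower in the C1q, class II antigen presentation and many resident macrophage genes. Of 4314 genes with a mean of at least 20 CPM over both sets, 193 (4.47%) had a level past 2-fold higher and 286 (6.63%) past 2-fold lower, and the median log2 ratio of all of them was -0.10. Median-of-ratios scaling gave 234 higher and 230 lower. The Slpi/Cxcl3 cells were deeper, with a median of 2778.5 UMIs against 2198.5 per cell. The gene lists below were drawn up with earlier results of these data known and share some genes, so their counts are descriptions beside these background shares.

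Antioxidant genes of the NRF2 list had the highest median ratio of all lists with more than 2 genes tested. Of 17 tested, 8 were past 2-fold higher and 0 past 2-fold lower, with a median log2 ratio of 0.98. Slc7a11, one of the genes that named these cells at the outset, had 97 UMIs in 37 of the 152 cells and no more than 8 in any one. It was at 212 CPM in Slpi/Cxcl3 cells and 26.5 CPM in cells with 0 UMIs, a log2 ratio of 3.01 (2.59 to 3.41), the largest among genes with a mean of at least 50 CPM. Most of the cells had no Slc7a11 UMI, and the UMIs were spread over many of those that did. Gclm, the modifier subunit of the enzyme that begins glutathione synthesis, was at 208 CPM against 45.8 CPM (2.18, 1.81 to 2.55). Srxn1, sulfiredoxin, which restores oxidized peroxiredoxins, was at 131 CPM against 32.1 CPM (2.03, 1.57 to 2.49). Prdx1, a peroxiredoxin that removes peroxides, was at 2637 CPM in Slpi/Cxcl3 cells and 819 CPM in cells with 0 UMIs (1.69, 1.59 to 1.78). Prdx6 was at 852 CPM against 289 CPM (1.56), the mitochondrial superoxide dismutase gene Sod2 at 753 CPM against 266 CPM (1.50), and Txnrd1, thioredoxin reductase, at 120 CPM against 55.6 CPM (1.12). The ferritin heavy chain gene Fth1, which stores iron, was at 41529 CPM against 16816 CPM (1.30, 1.28 to 1.33), and the light chain gene Ftl1 at 37774 CPM against 21762 CPM (0.80). Hmox1, the heme oxygenase that breaks down heme, was at 1667 CPM against 843 CPM, just under 2-fold (0.98, 0.87 to 1.10). Nfe2l2 itself was at 112 CPM in Slpi/Cxcl3 cells and 127 CPM in cells with 0 UMIs (-0.18, -0.63 to 0.23).

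The differences remained at equal depth. With every cell thinned to 2000 UMIs, which kept 112 Slpi/Cxcl3 cells and 870 cells with 0 UMIs, Slc7a11 was detected in 28 (interval 17.3 to 34.1%) against 22 (1.59 to 3.80%) of them, and in 24.3% against 3.60% of cells before thinning. Resident-gated cells (at least 3 UMIs of Mgl2, Lyve1 and Cd81 and at most 1 of the 3 genes) serve as a guide to free RNA, with Slc7a11 in 0 of 101 thinned cells and 3.08% of 130 before thinning, at a median of 2978.5 UMIs. Cd9 was detected in 63.4% of thinned Slpi/Cxcl3 cells against 18.5% of thinned cells with 0 UMIs. The NRF2 list summed to a median of 166 UMIs per 2000 in Slpi/Cxcl3 cells (range 38 to 526) and 67 in cells with 0 UMIs (12 to 539), so single cells overlapped widely. Without Fth1 and Ftl1, which give most of these UMIs, the medians were 17.5 and 7.

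**Figure D2:**
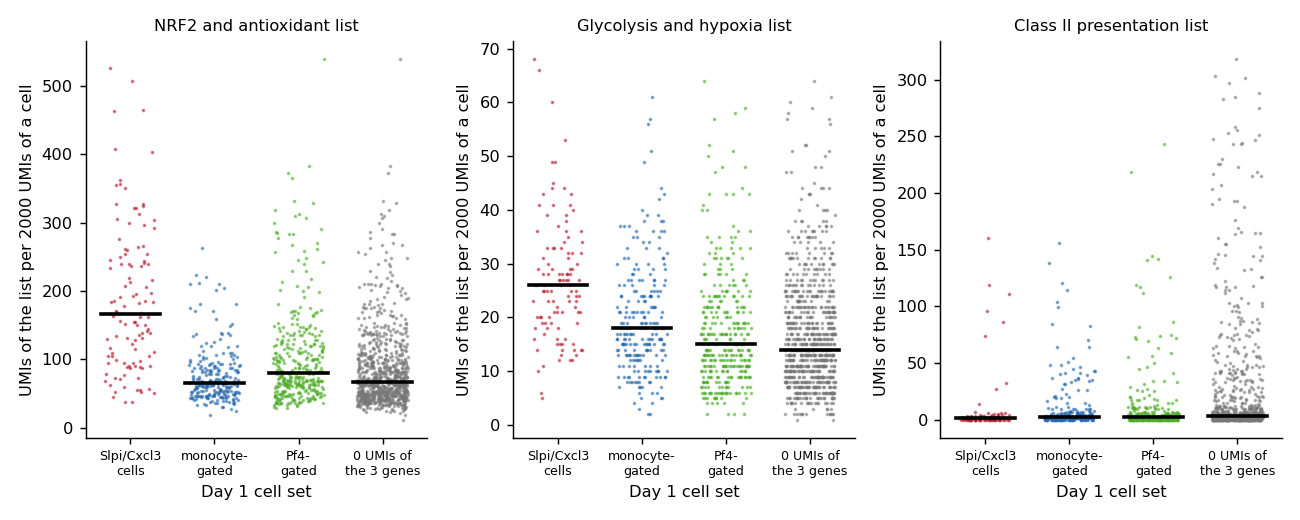
UMIs of 3 gene lists per 2000 UMIs of a cell (vertical axes) in 4 sets of day 1 cells (horizontal axis), 1 point per thinned cell, with a bar at the median. Slpi/Cxcl3 cells have medians of 166, 26 and 1 UMIs for the antioxidant, glycolysis and hypoxia, and class II lists, against 67, 14 and 3 in cells with 0 UMIs of the 3 genes, with wide overlap.

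Glycolysis and hypoxia genes were moderately higher as a list. Of 26 tested, 3 were at least 2-fold higher and 1 lower, yet 24 had ratios above 1 and the median was 0.64. Egln3, the hypoxia-induced oxygen sensor, was at 70.1 CPM against 7.84 CPM (3.16, 2.41 to 3.91), from 32 UMIs in 16 cells. Pgk1, which encodes the glycolytic enzyme phosphoglycerate kinase, was at 339 CPM against 143 CPM (1.25, 0.98 to 1.51), and Ero1l, an oxidase of the endoplasmic reticulum, at 125 CPM against 55.6 CPM (1.17). Aldoa (0.88), Tpi1 (0.91), Ldha (0.59) and Pkm (0.58) were higher by less than 2-fold. Cited2, which competes with hypoxia-inducible factor for its co-activator, was at 48.2 CPM against 99.9 CPM (-1.05). Respiratory chain genes differed little, with 0 of 29 past 2-fold in either direction and a median of -0.14, and the amino acid stress list had 0 of 11 past 2-fold and a median of 0.22.

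Lipid and lysosome genes had 10 of 26 at least 2-fold higher, 0 lower and a median of 0.56. The tetraspanin gene Cd9 had 502 UMIs in 102 of the 152 cells and was at 1099.5 CPM against 196 CPM (2.48, 2.32 to 2.65). Lpl, lipoprotein lipase, was at 199 CPM against 39.9 CPM (2.32), from 91 UMIs in 20 cells. Hilpda, a hypoxia-induced lipid droplet protein, was at 1233 CPM against 419 CPM (1.56, 1.42 to 1.70) and was detected in 114 cells. The fatty acid carrier gene Fabp5 (1.02), the galectin gene Lgals3 (1.28), the lysosomal acid lipase gene Lipa (1.20) and Gpnmb (1.33) were also past 2-fold, whereas Plin2, which coats lipid droplets, was not (0.55). Apoe, the lipid transport protein, was at 8247 CPM in Slpi/Cxcl3 cells and 11726 CPM in cells with 0 UMIs (-0.51, -0.56 to -0.46).

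Matrix and coagulation genes had 4 of 17 at least 2-fold higher and 0 lower, with a median of 0.53. Spp1, which encodes osteopontin, was at 17128 CPM against 5495 CPM (1.64, 1.60 to 1.68), with UMIs in 146 of 152 cells. Its detection was not particular to them, with UMIs in 81.25% of cells with 0 UMIs of the 3 genes and 85.8% of all day 1 cells. The proteoglycan gene Sdc1 was at 89.8 CPM against 17.4 CPM (2.37), and the clotting factor genes F7 and F10 at 112 CPM against 37.5 CPM (1.58) and 254 CPM against 87.2 CPM (1.54). Among 9 growth factor genes tested, 4 were at least 2-fold higher and 0 lower: Inhba (3.09, 20 UMIs in 10 cells), Igf1 (2.09, 50 UMIs in 23 cells), Gdf15 (1.80, 25 UMIs in 6 cells) and Areg (1.37, 64 UMIs in 14 cells). These 4 rest on few UMIs in few cells. The list of proteases and their inhibitors had a median of 0.13. Its collagenase gene Mmp8 was at 32.9 CPM against 9.31 CPM (1.82) and Serpinb6a at 8.76 CPM against 60.8 CPM (-2.79), from 15 and 4 UMIs, and the cysteine protease inhibitor gene Cstb was at 4302 CPM against 2253 CPM (0.93).

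Arginine metabolism showed 2 genes higher and 2 lower among 13 tested, with a median of -0.05. Arg1, the arginase also named at the outset, was at 7951 CPM in Slpi/Cxcl3 cells and 3589 CPM in cells with 0 UMIs (1.15, 1.09 to 1.20), and had UMIs in 147 of 152 cells, with a median of 15 and a maximum of 130. Arg1 was thus in nearly all Slpi/Cxcl3 cells but was not particular to them, with UMIs in 84.6% of all day 1 cells. Ass1, argininosuccinate synthase, which recycles citrulline towards arginine, was at 180 CPM against 34.8 CPM (2.37, 1.96 to 2.77). Ckb and Gatm, of creatine metabolism, were at 15.3 CPM against 119 CPM (-2.96) and 11.0 CPM against 50.7 CPM (-2.21), from 7 and 5 UMIs.

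The chemokines split by family. Of 8 CXC chemokine and receptor genes tested without Cxcl3, 3 were at least 2-fold higher and 1 lower, with a median of 0.63. Ppbp, the precursor of neutrophil-activating peptide, was at 1132 CPM against 369 CPM (1.62, 1.47 to 1.76), Cxcl14 at 171 CPM against 63.9 CPM (1.42) and Cxcl1 at 145 CPM against 64.4 CPM (1.17). Each of these 3 was absent from most Slpi/Cxcl3 cells, with UMIs in 45 (29.6%), 23 (15.1%) and 18 (11.8%) of them. The shares in cells with 0 UMIs were 19.1%, 6.94% and 5.37%. These higher levels thus rest on a minority of the Slpi/Cxcl3 cells, and the intervals leave out the spread between cells. Cxcl2, the neighbour of Cxcl3 in sequence and action, was at 4652 CPM against 3284 CPM (0.50), and the interferon-induced Cxcl10 had 3 UMIs, at 6.57 CPM against 60.8 CPM (-3.21, -5.50 to -1.64). Cxcl1, Cxcl2 and Cxcl3 are close in sequence, and reads that fit more than 1 of them are uncertain. CC chemokine and receptor genes ran the other way, with 6 of 14 past 2-fold lower, 0 higher and a median of -0.54. Ccl8 was at 28.5 CPM in Slpi/Cxcl3 cells and 295 CPM in cells with 0 UMIs (-3.38, -4.29 to -2.60), Ccl12 at 287 CPM against 950 CPM (-1.73) and Ccl4 at 1067 CPM against 2278 CPM (-1.09). Of the receptors, Ccr2, by which monocytes leave the bone marrow and enter tissue, was at 120 CPM against 342 CPM (-1.50) and Cx3cr1 at 13.1 CPM against 42.1 CPM (-1.68). Among 17 inflammatory genes, 2 were higher and 3 lower past 2-fold, with Il1b at 983 CPM against 1097 CPM (-0.16).

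The C1q genes, whose products start the classical complement pathway, were lower in the Slpi/Cxcl3 cells. C1qa was at 543 CPM against 2110 CPM (-1.96, -2.15 to -1.78), C1qb at 852 CPM against 2971 CPM (-1.80) and C1qc at 532 CPM against 1676 CPM (-1.66), while complement C3 was higher (1.11) and 3 of 11 complement genes were lower past 2-fold. Class II presentation had 7 of 8 genes at least 2-fold lower, 0 higher and a median of -1.41, with the invariant chain gene Cd74 at 1608 CPM against 5108 CPM (-1.67, -1.78 to -1.56). Resident macrophage genes other than those of the gate had 7 of 13 lower, 0 higher and a median of -1.01. Folr2, the folate receptor of resident macrophages, was at 59.1 CPM against 253 CPM (-2.10) and Cbr2 at 50.4 CPM against 299 CPM (-2.57). Gas6, a bridge to apoptotic cells, had 1 UMI, at 2.19 CPM against 70.1 CPM, 32.0-fold lower (5.70 to 1268). The paired genes Tmem176a and Tmem176b were at 17.5 CPM against 179 CPM (-3.35) and 26.3 CPM against 237 CPM (-3.17), and the IgG transport receptor gene Fcgrt at 46.0 CPM against 226 CPM (-2.30). The immediate early gene Egr1 was at 30.7 CPM against 162 CPM (-2.41), with 4 of 22 immediate early genes lower and 1 higher past 2-fold.

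The comparison cells in this contrast passed no gate, and 618 of the 1584 failed at least 1. Against the 966 cells with 0 UMIs that passed the same gates, the antioxidant list still had 8 genes at least 2-fold higher of 18 and a median of 0.90, beside a background of 4.85% higher, and class II had 7 of 8 lower and a median of -1.70, beside 6.24% lower. Interferon genes, by contrast, had 3 of 15 lower and a median of -0.40 against all cells with 0 UMIs, and 0 of 13 lower and a median of -0.03 against the gated ones. CC chemokine and receptor genes had 4 of 14 lower and a median of -0.26 against the gated ones. Complement genes had 3 of 12 lower, 2 higher and a median of -0.06 against them. Resident genes had 6 of 13 lower and a median of -0.89.

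Some genes with large ratios rested on single cells. Khk, ketohexokinase, was at 145 CPM against 30.1 CPM (2.26), but 60 of its 66 UMIs lay in 1 cell, and its ratio was -0.63 when each cell counted a gene at most once. Dusp16 (2.83) had 39 of 43 UMIs in 1 cell, Pef1 (2.89) 39 of 48, Bid (2.28) 29 of 38 and Arid1a (2.13) 28 of 44. In cells thinned to 2000 UMIs, Dusp16 was detected in 1.79% of Slpi/Cxcl3 cells and 2.41% of cells with 0 UMIs. Alas1, the first enzyme of heme synthesis, had UMIs in 36 cells, with 18 of 85 in 1 cell, and was at 186 CPM against 43.1 CPM (2.11). For Slc7a11, Cd9, Gclm, Prdx1 and Spp1, the cell with most UMIs held between 5.78% and 14.7% of them. For Srxn1 and Lpl it held 18.3% and 22.0%.

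The other kinds of day 1 cell compared were monocyte-gated cells (274 cells with at least 6 UMIs of Chil3, Ly6c2 and Vcan and at most 1 of the 3 genes; median 3852.5 UMIs per cell) and Pf4-gated cells (827 cells with at least 6 UMIs of the platelet factor gene Pf4 that passed the gates and had at most 1 UMI of the 3 genes; median 1804). Both share cells with the set that had 0 UMIs, 197 and 659 cells, and all comparisons share the 152 Slpi/Cxcl3 cells, so they do not repeat each other independently. Of the Slpi/Cxcl3 cells, 115 (75.7%) themselves had at least 6 Pf4 UMIs, and Pf4 was at 13249 CPM in them, 3909 CPM in monocyte-gated cells and 14267 CPM in Pf4-gated cells, which were chosen for it.

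Over monocyte-gated cells, 241 of 4346 genes (5.55%) were past 2-fold higher and 437 (10.1%) past 2-fold lower, with a median of all genes of -0.13, and median-of-ratios scaling gave 310 higher and 342 lower with a median of -0.02. The antioxidant list had 12 of 17 genes at least 2-fold higher, 0 lower and a median of 1.30. Slc7a11 was at 212 CPM against 11.7 CPM (4.18, 3.34 to 5.14), Igf1 at 110 CPM against 8.13 CPM (3.75), Cxcl14 at 171 CPM against 16.3 CPM (3.39), Lpl at 199 CPM against 19.9 CPM (3.33) and Hmox1 at 1667 CPM against 398 CPM (2.06, 1.89 to 2.24). CXC chemokine genes had 5 of 8 higher and a median of 1.40. The immune receptor gene Slamf7 (3.14) was among the 6 largest ratios. Interferon genes had 7 of 16 lower and a median of -0.82. Monocyte genes outside the gate had 7 of 22 lower, with Plac8 at 348 CPM against 1924 CPM (-2.47) and Ccr2 at 120 CPM against 471 CPM (-1.97). The Slpi/Cxcl3 cells were chosen for few UMIs of the monocyte and interferon gate genes. Monocyte-gated cells were chosen for many UMIs of the monocyte ones and met no interferon or resident gate. The values of the interferon and monocyte lists are therefore not independent of the choice. C1qa was at 543 CPM in Slpi/Cxcl3 cells and 1369 CPM in monocyte-gated cells (-1.33), and Il1b at 983 CPM and 1736 CPM (-0.82). The lower genes with the largest ratios were Pilrb1 (-3.38), Tmem176b (-2.97), Tmem176a (-2.86), Ckb (-2.60), Cldnd1 (-2.54) and Arf2 (-2.47).

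Over Pf4-gated cells, 195 of 4266 genes (4.57%) were past 2-fold higher and 256 (6%) past 2-fold lower. The antioxidant list had 7 of 18 higher, 0 lower and a median of 0.83, with Slc7a11 at 212 CPM against 27.0 CPM (2.97, 2.46 to 3.50), while Hmox1 differed less, at 1667 CPM against 1318 CPM (0.34, 0.22 to 0.46). The largest ratio among genes with a mean of at least 50 CPM was that of Ass1, at 180 CPM in Slpi/Cxcl3 cells and 19.9 CPM in Pf4-gated cells (3.18, 2.59 to 3.78). Dusp16 (3.17), Khk (2.64), Pef1 (2.49) and Dmkn (2.51, 43 of 53 UMIs in 1 cell) followed with UMIs concentrated in single cells. Resident genes had 8 of 13 lower and a median of -1.05, with Ccl8 at 28.5 CPM against 498 CPM (-4.13), Cbr2 at 50.4 CPM against 346 CPM (-2.78) and Folr2 (-2.37). Outside that list, Ckb (-2.63), Fcgrt (-2.40) and Dcxr (-1.92) were also among the 6 lowest ratios of genes with that mean level. Class II genes did not differ as a list here, with 1 of 7 lower and a median of 0.07, and Cd74 was at 1608 CPM against 1910 CPM (-0.25). The lower class II level of the Slpi/Cxcl3 cells therefore held against cells with 0 UMIs and, in part, monocyte-gated cells, whose list median was -0.65, and not against Pf4-gated cells. C1qa was lower against all of these sets, at 1882 CPM in Pf4-gated cells (-1.79). Spp1, Arg1 and Ppbp were higher over Pf4-gated cells (1.16, 0.67 and 0.51), and at -0.045, -0.11 and -0.098 when each cell counted a gene at most once.

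**Figure D3:**
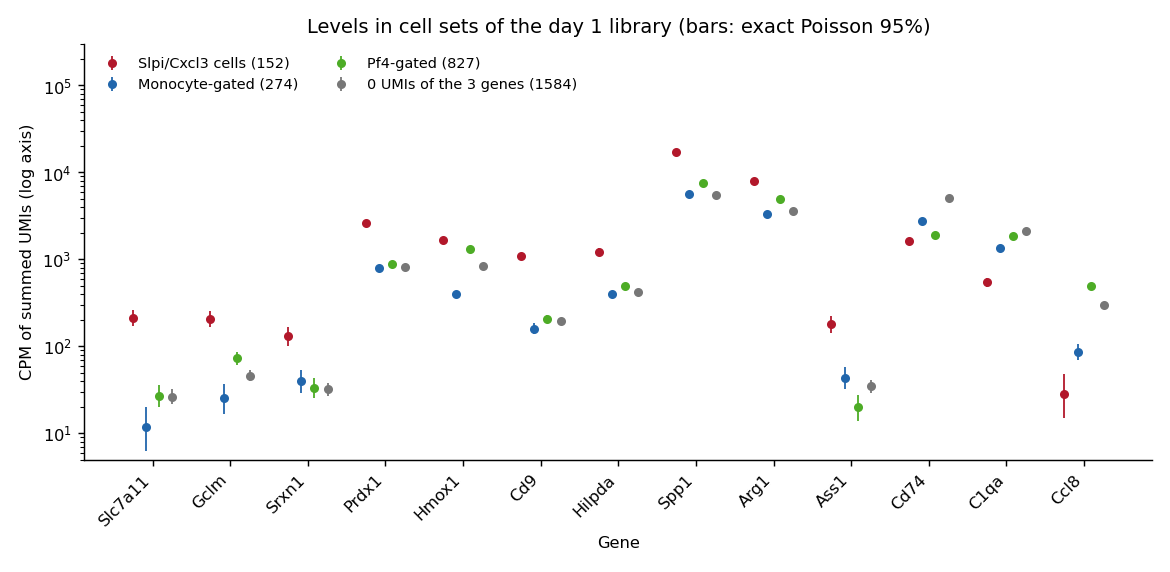
Level of 13 genes in CPM (vertical log axis) in 4 sets of day 1 cells, with exact Poisson 95% bars for counting error. Slc7a11, Gclm, Srxn1, Prdx1, Cd9, Hilpda, Spp1, Arg1 and Ass1 are highest in the Slpi/Cxcl3 cells (red), and C1qa and Ccl8 are lowest in them.

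**Figure D4:**
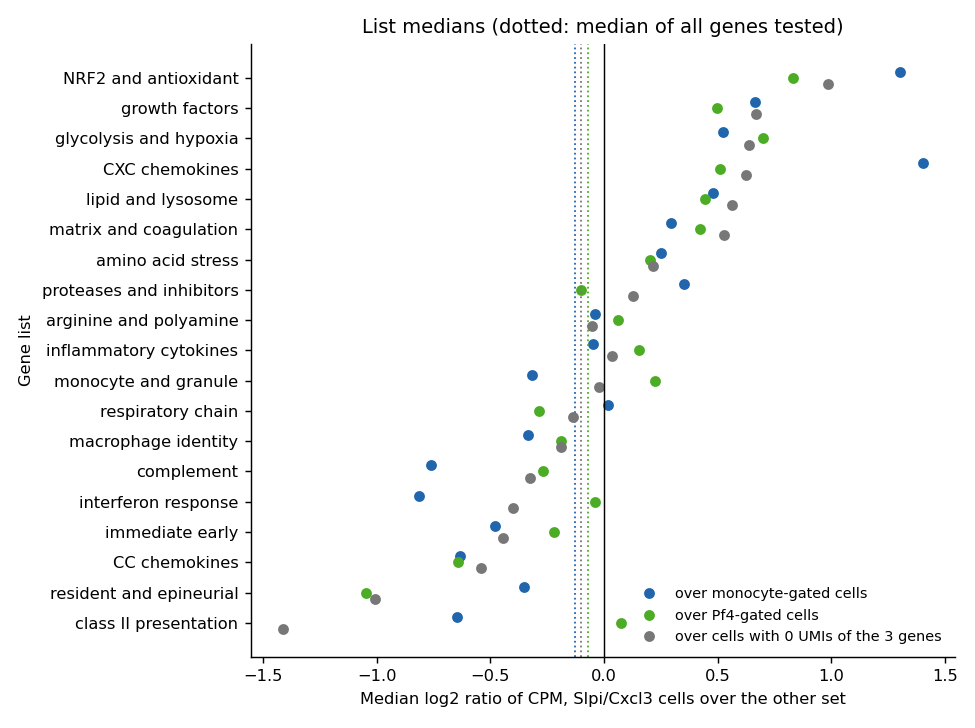
Median log2 ratio of CPM of each gene list (horizontal axis) for Slpi/Cxcl3 cells over monocyte-gated cells (blue), Pf4-gated cells (green) and cells with 0 UMIs of the 3 genes (grey), with dotted lines at the median of all genes tested. The antioxidant list lies at 1.30, 0.83 and 0.98, and class II presentation at -0.65, 0.07 and -1.41.

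Within the 152 cells, levels of some genes, but not of all, differed with the gene that had brought a cell in. The 33 cells with Slpi alone, 49 with Cxcl3 alone, 59 with both and no Mmp12, and 11 with Mmp12 had median depths of 2611, 2812, 2639 and 3907 UMIs. In that order Slc7a11 was at 217, 127, 235 and 403 CPM, each above the 26.5 CPM of cells with 0 UMIs. Cd9 was at 942, 678, 1102 and 2840 CPM, and Gclm at 197, 114, 163 and 716 CPM. Cells with Slpi alone and cells with Cxcl3 alone therefore both had these genes above the 196 CPM of Cd9 and 45.8 CPM of Gclm in cells with 0 UMIs, and for Slc7a11 and Gclm their intervals overlapped (134 to 332 against 76.7 to 199 CPM for Slc7a11).

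Other genes parted the cells with Slpi alone from those with Cxcl3 alone. Pf4 was at 5422 CPM (4967 to 5906) in cells with Slpi alone and 22515 CPM (21760 to 23290) in cells with Cxcl3 alone, and Ppbp at 310 CPM and 1979 CPM. Arg1 was at 4584 CPM (4167 to 5031) with Slpi alone and 10345 CPM (9835 to 10875) with Cxcl3 alone, both above its 3589 CPM in cells with 0 UMIs, and Hmox1 at 1169 CPM and 2563 CPM. Prdx1 ran the other way, at 2887 CPM (2558 to 3246) with Slpi alone and 1362 CPM (1181 to 1563) with Cxcl3 alone. Ass1 was at 197 CPM with Slpi alone, from 19 UMIs in 11 cells, and 40.3 CPM with Cxcl3 alone, from 6 UMIs in 6 cells. Sorted instead by the gene with most of a cell's UMIs of the 3 genes, Ass1 did not differ. It was at 166 CPM (112 to 237) in 65 cells led by Slpi and 155 CPM (111 to 211) in 82 led by Cxcl3. The shares of cells with a Prdx1 UMI did not follow its level, at 66.7% with Slpi alone and 71.4% with Cxcl3 alone. With Slpi alone, 1 cell held 65 of the 279 Prdx1 UMIs. The 11 cells with Mmp12 had the highest Prdx1, at 6776 CPM from 303 UMIs, 82 of them in 1 cell. The same 11 had the highest Lpl, at 827 CPM from 37 UMIs in 4 cells, but the lowest Ppbp, at 67.1 CPM from 3 UMIs. They also had Cd74 at 7402 CPM, against 807 to 1194 CPM in the other 3 groups, and held 331 of the 734 Cd74 UMIs of all 152 cells, in 6 cells. Whether these are doublets or another cell state was not tested.

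Across gated cells grouped by UMIs of the 3 genes, some genes changed in steps below and above the threshold and others mainly above it or unevenly. In cells with 0, 1 to 2, 3 to 5, 6 to 9, 10 to 19 and 20 or more UMIs, Cd9 was at 243, 402, 615, 825, 1124 and 1465 CPM. Prdx1 was at 862, 974, 1490, 2264, 2309 and 3568 CPM, and Slc7a11 at 37.6, 59.6, 81.1, 194, 213 and 239 CPM. On either side of the threshold, the intervals for Slc7a11 were 134.9 to 269 CPM in the 6 to 9 band and 54.3 to 116 CPM in the 3 to 5 band, and did not overlap. They rest on 35 UMIs over 69 cells and 29 UMIs over 136 cells and leave out the spread between cells. Median depths in the bands, from lowest to highest, were 1687.5, 1826, 2251, 2246, 2812 and 3548 UMIs per cell. Ass1 was flat below the threshold, at 41.5, 40.1 and 47.5 CPM, and at 122, 73.2 and 390.3 CPM above it. Spp1 was at 6798, 10139, 15188, 13504, 14577 and 25399 CPM, no higher in the 6 to 9 and 10 to 19 bands than in the 3 to 5 band. Gclm, at 60.3, 73.0, 89.5, 210.3, 93.1 and 342 CPM, and Srxn1, at 32.3, 62.0, 72.7, 183, 59.9 and 143 CPM, were lower in the 10 to 19 band than in the bands beside it, though its interval overlapped that of the 6 to 9 band for Gclm and that of the highest band for Srxn1. Ccl8 was at 369, 240, 268, 49.8, 13.3 and 15.9 CPM, and C1qa at 1883, 1046, 1074, 448, 885 and 271 CPM. Cd74 was at 5947, 3171, 1205, 1422, 592 and 3090 CPM, so it was already low below the threshold and higher again in the highest band. Pf4 peaked at 15950 CPM in the 6 to 9 band and was at 9366 CPM in the highest, and Hmox1 was at 2070 and 2109 CPM in the 6 to 9 and 10 to 19 bands and at 558 CPM in the highest.

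**Figure D5:**
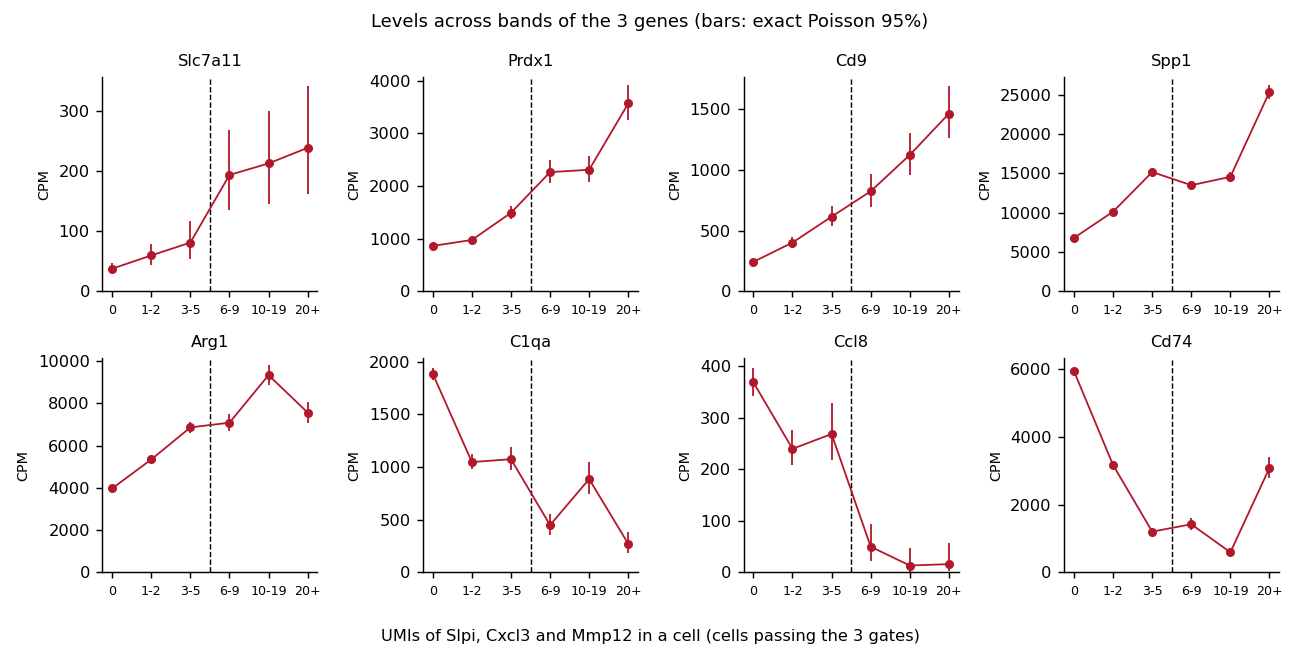
Level of 8 genes in CPM (vertical axes) in gated day 1 cells grouped by UMIs of Slpi, Cxcl3 and Mmp12 (horizontal axes), with exact Poisson 95% bars and a dashed line at the rule's threshold of 6. Cd9 and Prdx1 are higher in each next band, up to 1465 and 3568 CPM, and Ccl8 is lowest in the 3 bands right of the line.

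The 162 cells with at least 6 UMIs that failed a gate lay between. They had a median of 3933 UMIs per cell, and Slc7a11 was at 112 CPM (88.2 to 140), Cd9 at 583 CPM, Gclm at 137 CPM and Prdx1 at 2165 CPM in them, each below the Slpi/Cxcl3 cells and above the cells with 0 UMIs. Hmox1, at 1679 CPM, matched the 1667 CPM of the Slpi/Cxcl3 cells within counting error, and C1qa was at 667 CPM. They held 2 UMIs of Mmp12, against 86 in the Slpi/Cxcl3 cells. High Slpi and Cxcl3 with higher antioxidant genes was thus present in cells outside the gates too, 149 of which failed the monocyte gate.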

How the data were processed

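The deposited tables hold raw counts of UMIs per gene and cell barcode for 3 libraries, not normalized. Per the labels, the droplet chemistry was 10x Genomics v1. Cell Ranger 2.0.2 and build mm10 are recorded in the submitters' processing notes. Steps against free RNA and doublets: not given in the sources used here. A deposited table that pools the libraries was not used.

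Cells with at least 200 genes and at most 10% mitochondrial UMIs were kept, 5580 in all. Day 1 cells held 7963091 UMIs, 456554 of them in the 152 chosen cells, so that 3 counts there stand for 6.57 CPM. UMIs were summed over each set of cells and scaled to CPM. Ratios have exact conditional binomial, levels exact Poisson and shares exact Clopper-Pearson intervals at 95%. A count of 0 was set to 3 counts. Genes with a mean of at least 20 CPM over both sets were counted, leaving out the genes of the rule. Named genes were those of the rule, Arg1 and Slc7a11, the 12 largest ratios each way (6 over monocyte-gated and Pf4-gated cells) at a mean of at least 50 CPM, and up to 4 per list at 20 CPM; others given with values were picked after these were seen. The members and the 25 lists were chosen with earlier results of these data known. Thinning to 2000 UMIs and neighbours (15, from 20 principal components of 2000 variable genes) used scipy 1.17.1 and scikit-learn 1.9.0, and doublets were called with scrublet in scanpy 1.11.5. The count comparison was tested on simulated data. Alternatives varied the threshold, gates, depth range, cell weights, scaling, filter and doublet calls.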

Additional observations from a re-analysis of the deposited data

Results flagged for a closer look

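Slpi and Mmp12 were detected in the day 5 library, which enters no comparison of cell sets and was given above only by its levels and its 4 cells, above their limit in steady state. Slpi had 75 UMIs at day 5, or 13.6 CPM (10.7 to 17.0), and Mmp12 had 35 UMIs, or 6.34 CPM (4.41 to 8.81). Both had 0 UMIs in steady state, where the exact Poisson limit for a count of 0 is 2.23 CPM. Slpi was in 37 and Mmp12 in 20 of the 2059 day 5 cells, and only 4 of these cells met the rule for Slpi/Cxcl3 cells.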

How the results depend on the processing

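The number of Slpi/Cxcl3 cells was 83 at 10 or more UMIs, 314 with no gates, 93 with cells thinned to 2000 UMIs and 98 with Cxcl3 left out of the sum, and stayed within 1.5 times of 152 in the other alternatives. Counts of genes past 2-fold depended on the filter. With a mean of 50 CPM, 80 were higher and 82 lower over cells with 0 UMIs, 92 and 151 over monocyte-gated cells and 78 and 61 over Pf4-gated cells. With no filter other than 1 UMI, these were 4010 and 1324, 2525 and 1434, and 2850 and 1301, most of them resting on few UMIs. With each gene counted at most once per cell, an alternative added after the data were seen, 345 genes were higher over cells with 0 UMIs, 378 higher and 664 lower over monocyte-gated cells and 438 higher over Pf4-gated cells. At 10 or more UMIs, 319 were higher over Pf4-gated cells.

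Of 342 list medians and gene ratios, 14 with an interval that excluded 0 changed sign under some alternative. The other 328 did not, or had an interval that held 0, for which a change of sign was not counted. For a list, the interval runs between the medians of its genes' limits. One such uncounted case was the monocyte and granule list over cells with 0 UMIs. Its median was -0.02, and 0.07 against those that passed the gates. Khk was at -3.06 at 10 or more UMIs, -1.45 within the middle depth range and -0.63 once per cell over cells with 0 UMIs, and at -2.68, -1.35 and -0.37 over Pf4-gated cells, since 60 of its UMIs lie in 1 cell. Counted once per cell, Stmn1 was at 0.27 over cells with 0 UMIs. Over monocyte-gated cells, the medians of the monocyte and macrophage lists were then 0.067 and 0.160, Atp5b 0.019, C1qb 0.067, Ccl4 0.056 and H2afz 0.158. Over Pf4-gated cells, Arg1 was at -0.11, Ppbp at -0.098 and Spp1 at -0.045, Dusp2 at -0.091 at 10 or more UMIs and H2-Ab1 at -0.0015 in the middle depth range. For genes other than Khk the cause was not tested. A count of detecting cells saturates for a gene found in nearly every cell. No paired analysis was possible because each group is 1 library. Counting error limits genes near 20 CPM, which is 9.13 UMIs in the Slpi/Cxcl3 cells.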

Other observations

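Genes of monocytes and granules other than those of the gate stood on both sides in the Slpi/Cxcl3 cells, with 3 of 22 at least 2-fold higher than in cells with 0 UMIs of the 3 genes, 4 lower and a median log2 ratio of -0.02. Against cells with 0 UMIs that passed the same gates, 6 of 21 were higher, 3 lower and the median was 0.07. Clec4d, a C-type lectin receptor of myeloid cells, was at 767 CPM in Slpi/Cxcl3 cells and 292 CPM in cells with 0 UMIs (1.39, 1.22 to 1.57), and was detected in 106 of the 152 cells. Its partner Clec4e, which senses damaged cells and mycobacterial lipid, was at 326 CPM against 164 CPM (0.99, 0.72 to 1.25). Mcemp1 was at 131 CPM against 61.0 CPM (1.11), Plac8 at 348 CPM against 1056 CPM (-1.60) and the interferon-induced Ifitm1 at 56.9 CPM against 149 CPM (-1.39). Over all cells with 0 UMIs, the third gene past 2-fold higher was Dmkn, with 43 of its 53 UMIs in 1 cell.

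Among macrophage identity genes, 0 of 15 were past 2-fold higher and 1 was lower, Aif1, at 559 CPM in Slpi/Cxcl3 cells and 1246 CPM in cells with 0 UMIs (-1.16, -1.34 to -0.98). Of 6 cell cycle genes tested, 0 were past 2-fold in either direction, with a median of -0.26.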
